A study of Homo sapiens with 8 samples.

Results

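The genes described here copy and divide the genome of a cycling cell. They are 40 named genes of S phase and mitosis with polyadenylated mRNAs, the histone mRNA regulators SLBP and NPAT included. They were picked by name from the rows of the authors' deposited table of translation efficiency. Of the 40 names, 33 had a row, each with 1 transcript, among the 12109 transcripts of the table. The other 7, MKI67, PLK1, AURKA, AURKB, CDC20, UBE2C and KIF20A, were not analysed here.

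The cells were human hepatic stellate cells, labelled as a cell line and grown in DMEM with serum. These are the liver cells that deposit scar matrix when activated. The knockdown cultures carried the label LARP6 kd and received dsiLARP6, a silencing reagent against the RNA-binding protein LARP6. The control cultures carried the label WT and received dsi-control. RNA-seq and ribosome profiling were each done on 2 knockdown and 2 control libraries, 8 in all. Ribosome profiling sequences the RNA stretches that ribosomes shield from nuclease, here after a short cycloheximide treatment that holds ribosomes in place. The labels give no TGF-beta treatment for these libraries.

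The authors' deposited table gives translation efficiency, the footprints of a transcript divided by its RNA, as a log2 value in knockdown cells and as a log2 change in knockdown over control cells. Control log2 efficiencies were derived here by subtracting the second method's log2 change from the knockdown value. The table has no value per library, so no spread, standard error or depth stands beside any value, and precision rests on the authors' p-values. Efficiencies are scaled to the typical transcript, so a change shared by all mRNAs would not show. A log2 efficiency of 0 is close to the typical transcript, whose median was 0.01 in knockdown and 0.00 in control cells. For LARP6 itself the authors' deposited table lists a log2 change in efficiency of 0.07 (adjusted p = 0.981), which says nothing of its abundance and does not check the knockdown. Of 17 stellate cell markers 13 had a row, among them PDGFRB, COL1A1 and ACTA2, while DES, LRAT, RGS5 and NGFR were not analysed here. In the authors' deposited table, 8 of these 13 stellate cell markers were lower and 1 was higher in efficiency at an adjusted p of 0.05, with a median log2 change of −0.57, and their part in the values of the members was not tested. Rows were found for 2 of 10 hepatocyte, 2 of 8 endothelial, 2 of 8 leukocyte and Kupffer cell and 3 of 5 biliary markers.

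Before DNA is copied, a ring of MCM proteins is loaded onto origins, and in S phase it unwinds the helix ahead of the polymerases. The sliding clamp PCNA and its loader keep the polymerases on the template, and ribonucleotide reductase, thymidylate synthase and thymidine kinase supply the building blocks. Histones are made at the same time, from mRNAs that end in a stem-loop bound by SLBP and are transcribed with the help of NPAT. Cyclin A2 and the B cyclins then activate CDK1, which drives entry into mitosis. Kinesins and checkpoint proteins arrange the chromosomes, and the transcription factor FOXM1 switches on many mitotic genes. Most of these genes are transcribed in waves, through E2F sites in S-phase promoters and through CHR elements and CCAAT boxes in mitotic ones.

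The letters of these promoter elements were searched for in the RefSeq promoters, and 7 matches are printed here to show what they look like in both groups of members. These 7 genes were chosen after their values and matches were seen, and other members hold matches too. For each gene the match shown is the one nearest to its own RefSeq start. Translation efficiency does not measure promoter activity, so the sequences describe the genes and not the comparison. Each line gives 30 bases of GRCh38.p14, read 5′ to 3′ on the strand of the gene, with the matched letters in capitals. The first 4 hold a CHR match (TTTGAA or TTTAAA, either strand) and the last 3 an E2F match (TTTCGCGC, TTTGGCGC, TTTCCCGC or TTTGCCGC, either strand). In TOP2A, POLA1 and TYMS the match is on the opposite strand, so the capitals show its reverse complement.
CCNB1, chr5:69167108-69167137, plus strand: agcagtgcggggTTTAAAtctgaggctagg
CCNB2, chr15:59105105-59105134, plus strand: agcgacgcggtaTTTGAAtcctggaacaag
CENPF, chr1:214603068-214603097, plus strand: agagggcttgttTTTAAAatccatccgaaa
TOP2A, chr17:40418030-40418059, minus strand: ctgattggtttaTTCAAAcaaaccccggcc
POLA1, chrX:24693770-24693799, plus strand: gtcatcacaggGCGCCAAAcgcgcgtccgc
MCM7, chr7:100101398-100101427, minus strand: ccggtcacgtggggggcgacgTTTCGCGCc
TYMS, chr18:657603-657632, plus strand: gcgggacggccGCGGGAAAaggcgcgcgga

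Only the 250 bases before the start were searched. Of all 35116 RefSeq promoters, 21.9% held the CHR letters. They lay in 10 of 12 promoters of mitosis members (83.3%) and in 4 of 21 replication promoters (19.0%). They lay 30 bases before the RefSeq start in CCNB1 and 29 bases before it in CCNB2. CCAAT, on either strand, lay in 10 of 12 mitosis promoters as well (83.3%), in 13 of 21 replication promoters (61.9%) and in 11240 of all 35116 promoters. The E2F letters lay in 7 of 21 replication promoters (33.3%), 1 of 12 mitosis promoters (8.33%) and 2.79% of all promoters. RefSeq promoters were matched for 28 of the 33 measured members, with several starts for some of them, 35 in all. The counts are of starts and not of genes. CDK1 in the mitosis set is counted more than once, with overlapping promoters. So are MCM7, PCNA, POLD1, RRM2 and TK1 in the replication set, some of them with overlapping promoters. MCM4, MCM5, BIRC5, TPX2 and FOXM1 were not matched. RefSeq starts need not be the starts of the transcripts in the table. By the matched GENCODE positions, the printed matches of CCNB1, CCNB2, MCM7 and TYMS lie downstream of the transcript's annotated start, within its span. Those of CENPF, TOP2A and POLA1 lie before it. A match of letters is not evidence that a factor binds there.

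After LARP6 knockdown, cyclin B1 was the member called higher in translation efficiency, 3.42-fold, and the other members did not pass the test in either direction. Footprints and RNA are not listed separately, so which of them changed is unknown. The authors' deposited table calls 1 of the 33 members higher and 0 lower at an adjusted p of 0.05. Over all 12109 transcripts of the authors' deposited table, 1.07% were higher and 1.12% lower at that threshold, 2.2% in all, so 1 call among 33 members is close to the background. An unadjusted p under 0.05 was also reached by 1 of the 33 members of the authors' deposited table, again CCNB1, against 10.3% of all transcripts (5.46% higher and 4.83% lower). The median log2 change of the members was 0.15, against 0.02 over all transcripts of the authors' deposited table, and 13 members (39.4%) lay below 0, against 47.3% of all transcripts. Changes within 1.5-fold were seen for 21 of the 33 members, a smaller share than the 72.7% of all transcripts.

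**Figure D1:**
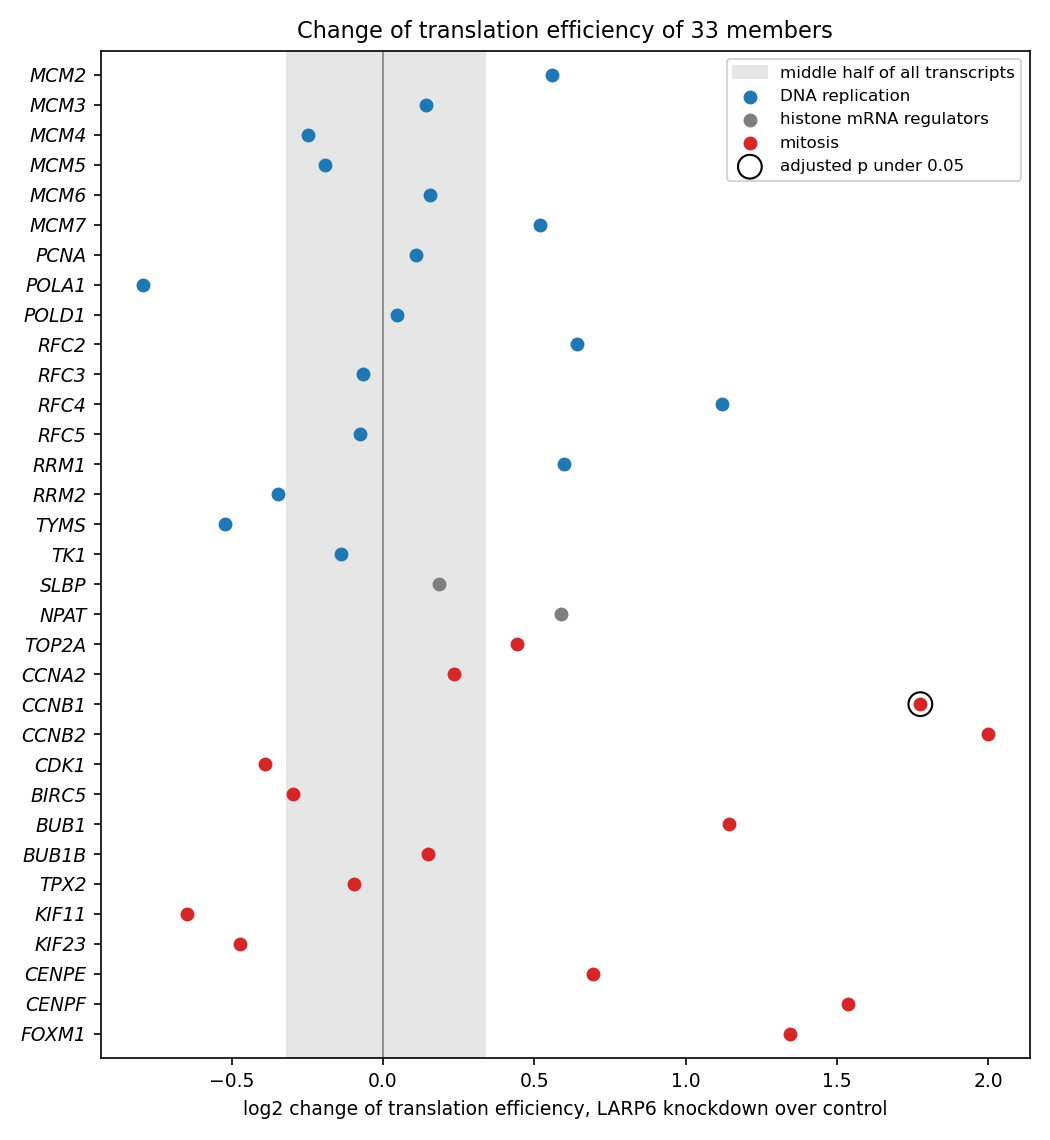
Log2 change of translation efficiency in LARP6 knockdown over control cells (horizontal axis) for the 33 measured members (vertical axis), from the authors' deposited table, coloured by role, with the shaded band spanning the interquartile range of all transcripts. CCNB1, circled at 1.78, is the member past an adjusted p of 0.05, and CCNB2 lies farther right at 2.0 without passing.

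The MCM2 to MCM7 helicase, which unwinds DNA at the fork, had most efficiencies inside the interquartile range of all transcripts. None of its subunits was called. The log2 efficiencies of its 6 subunits ran from −0.47 to 0.24 in knockdown cells in the authors' deposited table and, as derived here, from −0.76 to 0.09 in control cells. Highest and lowest subunit were thus 1.63-fold apart in knockdown and 1.80-fold apart in control cells. MCM7 had the smallest p of the 6 in the authors' deposited table, with a log2 change of 0.52 (p = 0.0681, adjusted p = 0.562). Its log2 efficiency was 0.24 in knockdown and −0.28 in control cells (chromosome 7, 100092781 to 100101940, minus strand, GRCh38; all gene positions are those of the matched GENCODE transcript). MCM2 had a log2 change of 0.56 (p = 0.174) and MCM4 of −0.25 (p = 0.370) in the authors' deposited table. In control cells MCM2 lay at the 23.6 percentile, below the interquartile range of all transcripts. For MCM3, MCM5 and MCM6 the log2 changes in the authors' deposited table were 0.14, −0.19 and 0.16.

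Polymerases and their clamp showed no change past the threshold. POLA1, the catalytic subunit of the polymerase that lays down primers (chromosome X, 24693919 to 24996986, plus strand, GRCh38), had the lowest log2 change of the 33 members in the authors' deposited table, −0.79, or 1.73-fold lower (p = 0.304, adjusted p = 0.877). Its log2 efficiency was −1.13 in knockdown and −0.34 in control cells. POLD1, the catalytic subunit of a main replicative polymerase, lay at 0.05 (p = 0.935) and PCNA at 0.11 (p = 0.732) in the log2 changes of the authors' deposited table.

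The clamp loader subunits RFC2 to RFC5, which open the PCNA ring, had log2 changes of both signs and none was called. RFC4 (chromosome 3, 186789900 to 186806501, minus strand, GRCh38) had the highest log2 change of the replication members in the authors' deposited table, 1.12, or 2.18-fold (p = 0.0734, adjusted p = 0.585). Its log2 efficiency of 1.05 in knockdown cells was the highest of the 33 members, against −0.07 in control cells. RFC2 had a log2 change of 0.64 (p = 0.138), whereas RFC3 and RFC5 lay at −0.07 and −0.08 in the authors' deposited table. The 4 subunits spanned 1.76-fold in efficiency in knockdown cells and 1.86-fold in control cells, a range like that of the MCM ring.

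Both subunits of ribonucleotide reductase, the enzyme that makes deoxynucleotides, lay further from each other in efficiency than either did between conditions. RRM2, the small subunit, had log2 efficiencies of −2.31 in knockdown cells in the authors' deposited table and −1.97 in control cells. RRM1, the large subunit, had 0.07 in knockdown and −0.53 in control cells. RRM1 was thus 5.23-fold above RRM2 in knockdown and 2.72-fold above it in control cells. RRM1 had the smallest p among members after CCNB1, with a log2 change of 0.60 (p = 0.0656, adjusted p = 0.553) in the authors' deposited table (chromosome 11, 4094809 to 4138876, plus strand, GRCh38). For RRM2 the authors' deposited table lists a log2 change of −0.35 (p = 0.616). TYMS, thymidylate synthase (chromosome 18, 657604 to 673578, plus strand, GRCh38), had a log2 change of −0.52, or 1.44-fold lower (p = 0.145, adjusted p = 0.747), and TK1, thymidine kinase, of −0.14 (p = 0.742), both in the authors' deposited table. For TYMS the log2 efficiency was −0.02 in knockdown and 0.50 in control cells. The sources used here do not state whether footprints and RNA reads were counted over the same part of each transcript, which limits comparisons of levels between genes.

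SLBP and NPAT, which serve the histone genes, did not pass the test. SLBP, the protein that binds the histone stem-loop and promotes processing and translation of histone mRNAs (chromosome 4, 1692800 to 1712555, minus strand, GRCh38), had a log2 change of 0.19, or 1.14-fold (p = 0.479, adjusted p = 0.937) in the authors' deposited table. Its log2 efficiency was 0.75 in knockdown and 0.56 in control cells, in the upper part of all transcripts in both. NPAT, the transcriptional coactivator of histone genes (chromosome 11, 108157215 to 108222642, minus strand, GRCh38), had a log2 change of 0.59, or 1.5-fold (p = 0.354, adjusted p = 0.902) in the authors' deposited table. Its log2 efficiency was −0.06 in knockdown and −0.65 in control cells. The 24 replication-dependent histone transcripts of the authors' deposited table had a median log2 change of −2.61, with 14 lower and 0 higher at an adjusted p of 0.05. Over all transcripts 1.12% were lower and 1.07% higher at that threshold. The median log2 efficiency of the histone transcripts was 1.09 in knockdown and, as derived here, 4.46 in control cells. These mRNAs end without a poly(A) tail, unlike those of the members, and the sources used here do not state how RNA was selected. Among 19 other factors of histone mRNA processing and decay in the authors' deposited table, 0 were called in either direction, and the median log2 change was −0.04. An unadjusted p under 0.05 was reached by 2 of them (10.5%), close to the 10.3% of all transcripts. Those 2 were ZNF473, a zinc finger protein of the histone 3′ end processing machinery, at 2.74 (p = 0.0162, adjusted p = 0.284) and CTIF, described as an SLBP partner in translation, at −0.51 (p = 0.0429, adjusted p = 0.450), both log2 changes in the authors' deposited table. CPSF2, a subunit of the cleavage complex, was the lowest at −0.60 (p = 0.0587), and the uridylyltransferase TUT4 came after ZNF473 at 0.66 (p = 0.191), again as log2 changes in the authors' deposited table.

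**Figure D2:**
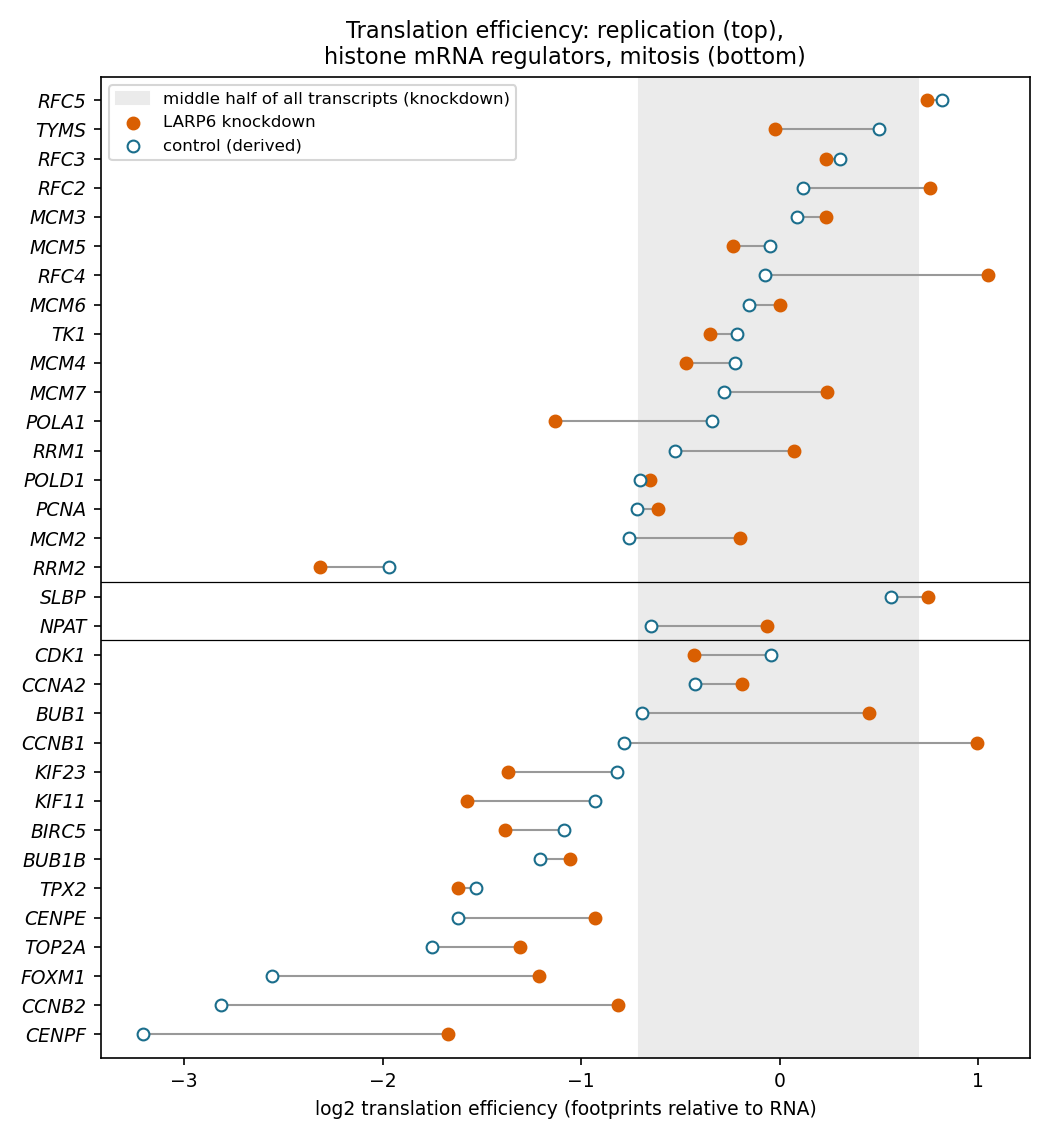
Log2 translation efficiency (horizontal axis, footprints relative to RNA) of each measured member (vertical axis) in LARP6 knockdown cells (filled, from the authors' deposited table) and control cells (open, derived), with the shaded band spanning the interquartile range of all transcripts in knockdown cells. Mitosis members, at the bottom, lie left of 0 in control cells in 14 of 14 cases, and CCNB1 lies on opposite sides of the band, with 0.99 in knockdown and −0.78 in control cells.

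Mitotic cyclins held both of the highest log2 changes among the members. CCNB1, cyclin B1 (chromosome 5, 69167010 to 69178245, plus strand, GRCh38), was 3.42-fold higher in knockdown cells in the authors' deposited table, a log2 change of 1.78 (p = 0.00029, adjusted p = 0.0171). Its log2 efficiency was 0.99 in knockdown and −0.78 in control cells, which is the 83.0 percentile of all transcripts in knockdown and the 23.0 percentile in control cells. By size it ranked 17 among the 130 transcripts called higher in the authors' deposited table. CCNB2, cyclin B2 (chromosome 15, 59105078 to 59125045, plus strand, GRCh38), had the larger log2 change, 2.0, or 3.99-fold, but a p of 0.238 (adjusted p = 0.840), as the authors' deposited table lists it. Its log2 efficiency was −0.82 in knockdown and −2.81 in control cells, so CCNB1 was 3.51-fold above CCNB2 in knockdown and 4.09-fold above it in control cells. CDK1, the kinase that both B cyclins activate (chromosome 10, 60778454 to 60794852, plus strand, GRCh38), had a log2 change of −0.39, or 1.31-fold lower (p = 0.514, adjusted p = 0.942) in the authors' deposited table. CDK1 log2 efficiency was −0.43 in knockdown and −0.04 in control cells, which put CCNB1 2.68-fold above CDK1 in knockdown and 1.67-fold below it in control cells. CCNA2, cyclin A2, had a log2 change of 0.23 (p = 0.712) in the authors' deposited table, with log2 efficiencies of −0.19 in knockdown and −0.42 in control cells. Whether CCNB1 changed differently from its partners was not tested, since that needs values per library.

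Checkpoint and chromosome passenger genes did not pass the test. BUB1, a checkpoint kinase of the kinetochore (chromosome 2, 110637834 to 110678114, minus strand, GRCh38), had a log2 change of 1.14, or 2.21-fold (p = 0.176, adjusted p = 0.787) in the authors' deposited table. BUB1 log2 efficiency was 0.45 in knockdown and −0.69 in control cells. Its relative BUB1B, which restrains the anaphase ubiquitin ligase, had a log2 change of 0.15 (p = 0.953) in the authors' deposited table. Its efficiency lay 2.84-fold below BUB1 in knockdown and 1.43-fold below it in control cells. BIRC5, survivin, which guides Aurora B to the chromosomes, had a log2 change of −0.30 (p = 0.635) in the authors' deposited table. TOP2A, which untangles sister chromatids, had a log2 change of 0.44 (p = 0.709) in the authors' deposited table, with log2 efficiencies of −1.31 in knockdown and −1.75 in control cells.

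Spindle proteins differed in sign, and FOXM1 lay on the high side. CENPF, a large kinetochore protein (chromosome 1, 214603195 to 214664588, plus strand, GRCh38), had a log2 change of 1.54, or 2.90-fold (p = 0.143, adjusted p = 0.743) in the authors' deposited table. CENPF had the lowest control log2 efficiency of the members, −3.21, and −1.67 in knockdown cells. CENPE, the kinesin that carries chromosomes to the spindle equator, had a log2 change of 0.69 (p = 0.566) in the authors' deposited table. KIF11, the kinesin that separates spindle poles (chromosome 10, 92593286 to 92655395, plus strand, GRCh38), had a log2 change of −0.65, or 1.56-fold lower (p = 0.369, adjusted p = 0.908), in the authors' deposited table, with log2 efficiencies of −1.58 in knockdown and −0.93 in control cells. KIF23, a kinesin of the midzone and cytokinesis, had −0.47, or 1.39-fold lower (p = 0.709, adjusted p = 0.975), and TPX2, which activates Aurora A on the spindle, had −0.10 (p = 0.831), both as log2 changes in the authors' deposited table. KIF23 log2 efficiency was −1.37 in knockdown and −0.82 in control cells, the control value derived from the second method's change of −0.55. FOXM1 (chromosome 12, 2857684 to 2876941, minus strand, GRCh38) had a log2 change of 1.35, or 2.54-fold (p = 0.164, adjusted p = 0.767) in the authors' deposited table, with log2 efficiencies of −1.21 in knockdown and −2.56 in control cells.

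**Figure D3:**
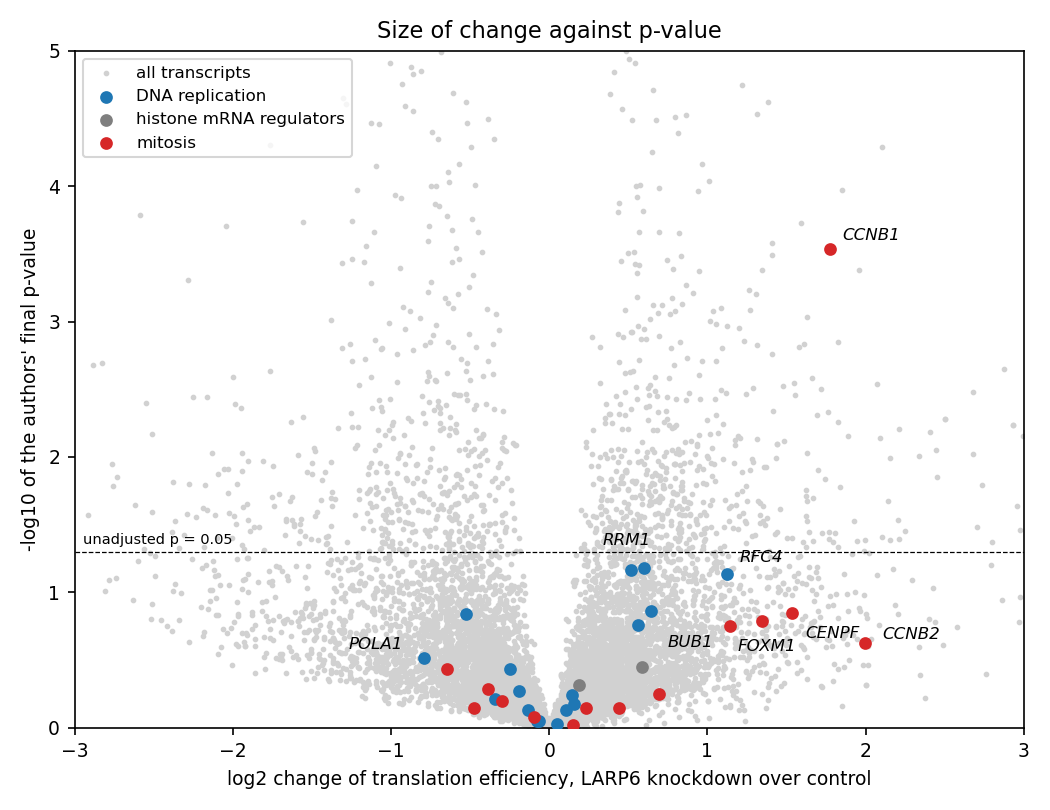
Log2 change of translation efficiency in LARP6 knockdown over control cells (horizontal axis) against −log10 of the authors' final p-value (vertical axis), with members coloured by role over all transcripts in grey; the axes stop at 3 and 5 and leave out 142 transcripts, none of them a member. CCNB1 is the 1 member above the dashed line at an unadjusted p of 0.05, while CCNB2, CENPF, FOXM1, BUB1 and RFC4 have log2 changes above 1 and lie below it.

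Most of the members with a large estimate did not pass the test. A log2 change of at least 1 in either direction was listed for 6 members (18.2%) of the authors' deposited table. All 6 were upward, and 1 of the 6 was called. Over all transcripts of the authors' deposited table, 1282 (10.6%) had a change of that size, 583 upward and 699 downward. Of these 1282, 110 (8.58%) were called. Of the 6 members, 5 belong to mitosis. CCNB2, CENPF and FOXM1 also had derived control efficiencies in the lowest 10 percent of all transcripts. So did RRM2, TOP2A, TPX2 and CENPE, whose log2 changes were −0.35, 0.44, −0.10 and 0.69. A derived control value contains the change itself, so a high change and a low control value are not independent. How many footprints stood behind these values is unknown, and its part in the large estimates was not tested. In bulk cultures a change of efficiency in every cell and a change in the share of cells at one stage of the cycle cannot be told apart.

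Most measured mitosis members had a lower efficiency than the typical transcript in both conditions. Their median log2 efficiency was −1.13 in knockdown cells in the authors' deposited table and −1.15 in control cells, and 12 of 14 lay below 0 in knockdown and 14 of 14 in control cells. Over all transcripts 49.7% lay below 0 in knockdown and 49.9% in control cells. Replication members stood nearer to the middle, with a median log2 efficiency of −0.02 in knockdown and −0.22 in control cells, and 9 of 17 below 0 in knockdown and 12 of 17 in control cells. The 74 other mitosis genes lay nearer to the typical transcript than the mitosis members, with a median log2 efficiency of −0.29 in knockdown cells in the authors' deposited table and −0.54 in control cells, and 63.5% below 0 in knockdown and 71.6% in control cells. These are descriptions of the levels without a test of the difference. They cover 14 of the 21 mitosis members listed and 17 of the 17 replication members.

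Among the 32 members that matched an annotated transcript, the median coding length, stop codon included, was 2225 bases, against 1389 bases over 10560 protein-coding transcripts. The range among the members ran from 429 bases in BIRC5 to 9345 bases in CENPF. The median transcript length was 3220 bases in the members and 3059 bases in the protein-coding transcripts. Across the 10560 protein-coding transcripts, efficiency in knockdown cells was lower for longer transcripts. The Spearman rho was −0.43 with transcript length and −0.40 with coding length. Across the 32 members it was −0.48 with transcript length and −0.32 with coding length, with the libraries and their depth shared by all points. The part of length in the low efficiency of the mitosis members was not tested. The Spearman rho of the log2 change with coding length was 0.26 across the 32 members and −0.02 across the protein-coding transcripts. Around the start codon, a purine stood at position −3 in 30 of 32 members (93.8%) and in 87.0% of protein-coding transcripts. A G directly after the start codon, position 4 counted from its A, was found in 17 of 32 members (53.1%) and in 53.8% of protein-coding transcripts.

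Lists of 64 other S-phase genes and 104 other mitosis genes gave no call at an adjusted p of 0.05. Among 57 other S-phase genes that the authors' deposited table holds, 0 were higher and 0 lower, with 4 (7.02%) at an unadjusted p under 0.05. Among 74 other mitosis genes of the authors' deposited table, 0 were higher and 0 lower, with 8 (10.8%) at an unadjusted p under 0.05. Over all transcripts 10.3% reached that p, so the S-phase share was below the background and the mitosis share close to it, and the genes named from these lists are given as values only. By the authors' first method alone, adjusted by Benjamini-Hochberg, 1 S-phase gene, DNMT1, and 2 mitosis genes, CDC25B and ESPL1, passed, and by the second method alone 0 and 0 did. The median log2 change was 0.19 for the S-phase genes and 0.36 for the mitosis genes of the authors' deposited table, against 0.02 over all transcripts. Of the 74 mitosis genes, 49 (66.2%) lay above 0 in the authors' deposited table, as did 37 of the 57 S-phase genes (64.9%), against 50.8% of all transcripts. The members themselves had medians of 0.05 for replication and 0.34 for mitosis in the authors' deposited table, with 9 of 17 and 9 of 14 above 0.

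**Figure D4:**
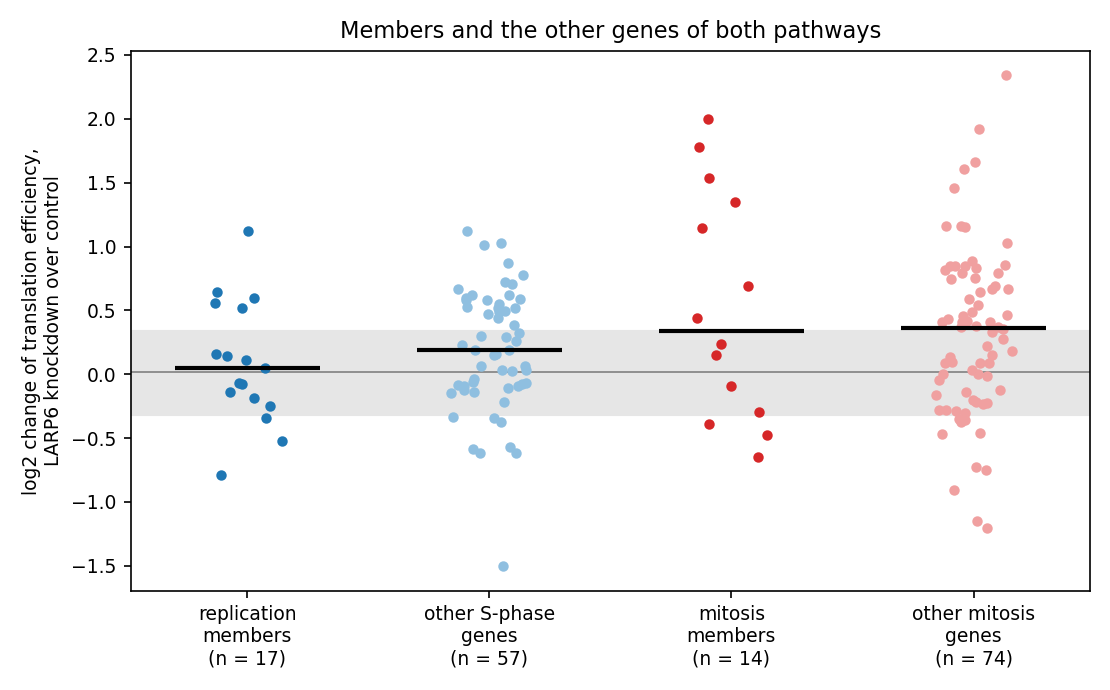
Log2 change of translation efficiency in LARP6 knockdown over control cells (vertical axis) for replication members, other S-phase genes, mitosis members and other mitosis genes (horizontal axis, each point 1 transcript of the authors' deposited table, black bars the medians, sideways scatter random). The grey band spans the interquartile range of all transcripts and the grey line their median; medians are 0.05, 0.19, 0.34 and 0.36 from left to right.

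Of the other S-phase genes, HELLS, a chromatin remodeller, had the lowest log2 change, −1.50 (p = 0.0110, adjusted p = 0.234), in the authors' deposited table, followed by ORC2, a subunit of the origin recognition complex, at −0.62 (p = 0.255). GINS3, a subunit of the replicative helicase, was the highest at 1.13 (p = 0.155), followed by GMNN, geminin, the inhibitor of origin licensing, at 1.03 (p = 0.0209, adjusted p = 0.322), as log2 changes in the authors' deposited table. The maintenance DNA methyltransferase DNMT1 had 0.78 (p = 0.00882, adjusted p = 0.209) and deoxycytidine kinase, DCK, 0.67 (p = 0.0211, adjusted p = 0.323) in the same measure of the authors' deposited table.

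Of the other mitosis genes, ESPL1, separase, the protease that cuts cohesin, had the highest log2 change, 2.34 (p = 0.00980, adjusted p = 0.219), in the authors' deposited table, followed by the kinetochore scaffold KNL1 at 1.92 (p = 0.206). The cytokinesis proteins ANLN and ECT2 were the lowest at −1.20 (p = 0.0965) and −1.15 (p = 0.0186, adjusted p = 0.304), as log2 changes in the authors' deposited table. CDC25B, a phosphatase that activates CDK1, had 0.88 (p = 0.00339, adjusted p = 0.115), the smallest p of the 74 genes in the authors' deposited table. CENPW at 1.61, the condensin subunit SMC4 at 1.02, the cohesin subunit SMC3 at 0.83, LMNB2 at 0.65 and BUB3 at 0.54 were the others with an unadjusted p under 0.05, as log2 changes in the authors' deposited table.

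Cyclins of the preceding phase gave 2 calls among 17 G1 cyclins, kinases and inhibitors, 1 in each direction, against 2.2% of all transcripts. CCND1, cyclin D1, was 1.82-fold higher in knockdown cells (adjusted p = 1.6e-20) and CCND2, cyclin D2, was 4.13-fold lower (adjusted p = 0.0124), as the authors' deposited table lists them. CDKN2C, an inhibitor of CDK4 and CDK6, and the transcription factor E2F3 had the highest estimates, 2.02 (p = 0.247) and 1.5 (p = 0.324), and the inhibitor CDKN2B lay at −0.37 (p = 0.311), as log2 changes in the authors' deposited table. The median log2 change of the 17 was 0.17 in the authors' deposited table, with 2 (11.8%) at an unadjusted p under 0.05, close to the 10.3% of all transcripts.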

How the data were processed

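RNA-seq and ribosome profiling were each done in 2 LARP6 knockdown and 2 control libraries. Reads were handled with cutadapt and Bowtie on hg38, also named GRCh38, per the submitters' processing notes. How reads were counted and which program compared the conditions were not given in the sources used here. Per the file headers, the authors deposited log2 changes by 2 methods, a final log2 change and the log2 efficiency of knockdown cells. They also deposited the p-value from either method, the final p-value and its adjusted form, per the file headers. Tested on the table, the final p-value was the larger of both methods' in 12109 transcripts (relative tolerance 1e-09), and its Benjamini-Hochberg adjustment differed from the deposited one by at most 6.3e-15. The final log2 change equalled the second method's in 32 of the 33 members, KIF23 being the exception. The table holds no values per library, so depth is unknown and all p-values are the authors'. Nothing in the labels says that replicates came from separate cultures, so p-values may measure technical spread.

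The members and lists were chosen with earlier results of these data known. The rule for named genes gives full values to members with an adjusted or unadjusted p under 0.05, to the 5 highest and 5 lowest log2 changes, and to SLBP and NPAT. Of the other lists it names genes with an adjusted p under 0.05 and the 2 highest and 2 lowest log2 changes. DNMT1, DCK, CDC25B, CENPW, SMC4, SMC3, LMNB2, BUB3, and other members' details beyond the rule, were chosen after their values were seen. Transcripts were matched to GENCODE release 29 on GRCh38 by gene name and the final digits of the transcript identifier, or by those digits alone where they were unique (11590 of 12109, and 32 of 33 members; KIF23 was not matched). Promoter sequences are from RefSeq, GRCh38.p14. The adjustment step was tested on simulated data. Python 3.11.15, pandas 2.3.3, numpy 2.4.6 and scipy 1.17.1 were used. Alternatives were other thresholds, either method by itself, adjustment over protein-coding transcripts, a 2-fold minimum, another centring and leaving out members of extreme efficiency.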

Additional observations from a re-analysis of the deposited data

How the results depend on the processing

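CCNB1 was called higher with an adjusted p under 0.1, an unadjusted p under 0.05, each method alone, adjustment over protein-coding transcripts only and a 2-fold minimum, whereas 0 members were higher at an adjusted p under 0.01, where its adjusted p of 0.0171 does not pass. Under those 7 settings 0 members were lower. Of the other S-phase genes 4 passed an unadjusted p under 0.05 and 1 passed by the first method alone. Of the other mitosis genes 8 and 2 did, and 0 genes of either list passed under the other settings. The members' median log2 change ran from 0.13, centred on protein-coding transcripts, to 0.16, without members of extreme knockdown efficiency, and the share below 0 from 34.5% to 39.4%. Over single members 98 alternative values were computed, and 98 kept their sign and their side of the threshold; both methods give nearly the same estimates, so this is no independent check. KIF23 has no value among protein-coding transcripts, because it was not matched. No paired analysis was possible because the table holds no values per library, and no library could be left out for the same reason. Depth is unknown, so which members were too shallow to be called cannot be said.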
